A study of Mus musculus with 11 samples.

Results

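The chemokines that call eosinophils and Th2 cells into tissue, and the receptors that read them, were followed in mouse skin after bone marrow transplant. The set held 8 of the 754 genes on the panel and was chosen by name and known function. It comprised the CCR3 ligands Ccl11, Ccl24 and Ccl26, the CCR4 ligands Ccl17 and Ccl22, and the receptors Ccr3, Ccr4 and Ccr8. All 8 were measured in every one of 11 mice, and 7 of them passed the filter on low values, a normalized count of at least 20 in at least 3 mice. Ccl26 did not pass and is described by its values alone.

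Every mouse had received 850 cGy of radiation followed by bone marrow cells and splenocytes, and skin from the nape of the neck was taken at week 7. The methods describe all mice as females used at 8 to 10 weeks of age. The 3 syngeneic and 3 allo-WT recipients were C57BL/6J mice, and the 5 allo-MCd recipients were B6.Cg-KitW-sh/HNihrJaeBsmGlliJ mice, which carry the W-sh allele of Kit and lack mast cells. Kit also serves melanocytes and blood progenitors, so lack of mast cells is not the only known trait of the strain. Per the labels all 11 mice were given LP/J cells, whereas in the methods the syngeneic donors were C57BL/6J mice. The groups keep their deposited names here. From each mouse 100 ng of total RNA was hybridized to the NanoString Myeloid Innate Immunity panel, in which color-coded probes count RNA molecules without amplification.

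Chemokines are small secreted proteins that guide leukocytes through G protein-coupled receptors. CCR3 is carried by eosinophils and also by basophils and mast cells, and its ligands, the eotaxins, are made by fibroblasts, epithelium and macrophages. CCR4 is found on Th2 cells, regulatory T cells and skin-homing memory T cells, and its ligands CCL17 and CCL22 come mainly from dendritic cells and macrophages. CCR8 is carried by Th2 cells, regulatory T cells and skin-resident T cells. The type 2 cytokines IL-4 and IL-13, acting through STAT6, are well-known inducers of both ligand families. In the RefSeq gene order of the mouse, Ccl11 lies in the chromosome 11 cluster with Ccl2, Ccl7, Ccl12, Ccl8 and Ccl1, Ccl24 lies beside Ccl26 on chromosome 5, and Ccl22 and Ccl17 flank Cx3cl1 on chromosome 8. All 3 receptor genes lie on chromosome 9.

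Each mouse gave between 831632 and 1460260 recovered counts in all, with the lowest total in allo-WT mouse 1. Positive control A, a spiked-in target deposited as raw counts, read 3975, 19850 and 17615 in the 3 allo-WT mice and 23084 to 33547 in the other 8, and its part in the differences from allo-WT was not tested. Background, the mean of the 8 negative control probes plus 2 SD, lay at a normalized count of 14.3 to 37.5, and was highest in allo-WT mouse 1. Recovered counts of the 8 genes ran from 4 for Ccl26 to 6571 for Ccl11, so the low members rest on few molecules. The skin label was checked against Cdh1, the 1 keratinocyte gene of the marker list on the panel, which lay between 2216 and 6371 in all mice, and against 5 fibroblast genes, which were above background in every mouse. Groups were compared with limma on log2(normalized count + 1), with Benjamini-Hochberg adjustment over all 696 genes tested and a threshold of 0.05. All differences are on that log2 scale, and the added 1 shrinks those of low genes. The typical gene itself shifted on the deposited scale. The median log2 difference over all genes tested was 0.21 for allo-WT minus syngeneic, -0.72 for allo-MCd minus allo-WT and -0.59 for allo-MCd minus syngeneic. After each mouse was scaled to its own median these became -0.04, 0.12 and -0.01, and results are therefore given on both scales where the call differs. Whole skin was measured, so fewer cells of a type and less RNA per cell cannot be told apart.

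Between allo-WT and syngeneic skin, Ccr3 rose, Ccr4 fell, and none of the ligands passed the test. The 2 members called, of 7 tested, compare with 43.2% of all genes tested. Between allo-MCd and allo-WT skin, Ccl11, Ccl17, Ccr3 and Ccr8 fell and Ccr4 rose. The 5 members called, of 7, compare with 60.9% of all genes. Between allo-MCd and syngeneic skin, Ccl11, Ccl24, Ccl17 and Ccl22 fell and no receptor passed the test. The 4 members called compare with 41.5% of all genes called in either direction and 36.9% called lower. After median scaling 3, 4 and 2 members were called in the 3 comparisons, beside 51.6%, 65.9% and 27.4% of all genes. Members whose groups did not overlap numbered 2, 3 and 4 as deposited, beside 53.9%, 56.0% and 44.3% of all genes. The median member differed by 0.39, -1.39 and -1.20 in these 3 comparisons, and by 0.14, -0.57 and -0.61 after median scaling, beside the medians over all genes given above. The allo-WT mice enter the first 2 comparisons and the allo-MCd mice the last 2, so the comparisons are not independent of each other.

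Ccl11 encodes eotaxin-1, a chemoattractant for eosinophils through CCR3. Its normalized counts were 2964, 2255 and 2741 in the syngeneic mice, 3440.1, 2735 and 8394 in the allo-WT mice, and 825, 1000.3, 1181, 779 and 2149 in the allo-MCd mice. All 5 allo-MCd mice lay below all 6 mice of the other groups, and allo-WT mouse 3 stood far above the rest. The syngeneic mean was 2653 ± 363 (SD, n = 3), the allo-WT mean 4856 ± 3084 (SD, n = 3) and the allo-MCd mean 1187 ± 561 (SD, n = 5). Ccl11 fell from allo-WT to allo-MCd by 1.96 on the log2 scale (SE 0.38, adjusted p = 0.00082), or 3.89-fold, and by 1.11 after median scaling (adjusted p = 0.0104). An exact two-sided permutation test of the same difference gave p = 0.0357, the smallest that 3 mice against 5 allow, and p = 0.0714 after median scaling, where the groups overlapped. The test of the study's methods lost the call once adjusted (adjusted p = 0.0704). The fall from syngeneic to allo-MCd was 1.26 (adjusted p = 0.0210), and after median scaling the difference was -0.67 and no longer passed the test (adjusted p = 0.149). It was also lost under quantile normalization (-0.83, adjusted p = 0.0971), with voom on recovered counts (-0.64, adjusted p = 0.155), by the methods' test (adjusted p = 0.707) and when allo-MCd mouse 1, syngeneic mouse 1 or syngeneic mouse 3 was left out (-1.15 to -1.23, adjusted p = 0.0511 to 0.0783). Allo-WT exceeded syngeneic skin by 0.70 (95% confidence interval -0.23 to 1.63), which did not pass the test (adjusted p = 0.187), and the groups overlapped. Without allo-WT mouse 3 that difference was 0.22, and without allo-WT mouse 2 it was 1.03, neither of them called.

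Ccl24 encodes eotaxin-2, a second CCR3 ligand typical of macrophages. Normalized counts of Ccl24 were 1089, 486 and 978 in the syngeneic mice, 193, 392 and 885 in the allo-WT mice, and 134, 118, 181, 118 and 429 in the allo-MCd mice. The syngeneic mice were the highest group and the allo-MCd mice the lowest, with no overlap between these 2 as deposited, while the allo-WT mice overlapped both. Ccl24 fell from syngeneic to allo-MCd by 2.23 (SE 0.52, adjusted p = 0.0058), or 4.68-fold, and by 1.64 after median scaling (adjusted p = 0.0272), where syngeneic mouse 2 and allo-MCd mouse 5 overlapped. The exact permutation p went from 0.0357 to 0.0714 with that scaling, and the methods' test lost the call once adjusted (adjusted p = 0.0940). The difference of allo-WT from syngeneic was -0.98 (95% confidence interval -2.26 to 0.29, adjusted p = 0.181), and without allo-WT mouse 3 it was -1.54 and passed (adjusted p = 0.0402). The difference of allo-MCd from allo-WT was -1.24 (adjusted p = 0.0557), just outside the threshold. It passed without allo-MCd mouse 5 (-1.58, adjusted p = 0.0120) or without allo-WT mouse 1 (-1.78, adjusted p = 0.0152), and was -0.40 after median scaling (adjusted p = 0.483).

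Ccl26 encodes eotaxin-3. Its normalized counts were 13.5, 4.33 and 9.92 in the syngeneic mice, 43.1, 8.36 and 15.3 in the allo-WT mice, and 6.83, 9.27, 5.17, 3.99 and 8.06 in the allo-MCd mice. One value, 43.1 in allo-WT mouse 1, exceeded the background of its mouse, which was 37.5 there. This was the mouse with the fewest counts, and its 17 recovered counts of Ccl26 were the most in any mouse. No level of Ccl26 could be told from background in the other 10 mice at this depth, and no difference between groups is given.

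**Figure D1:**
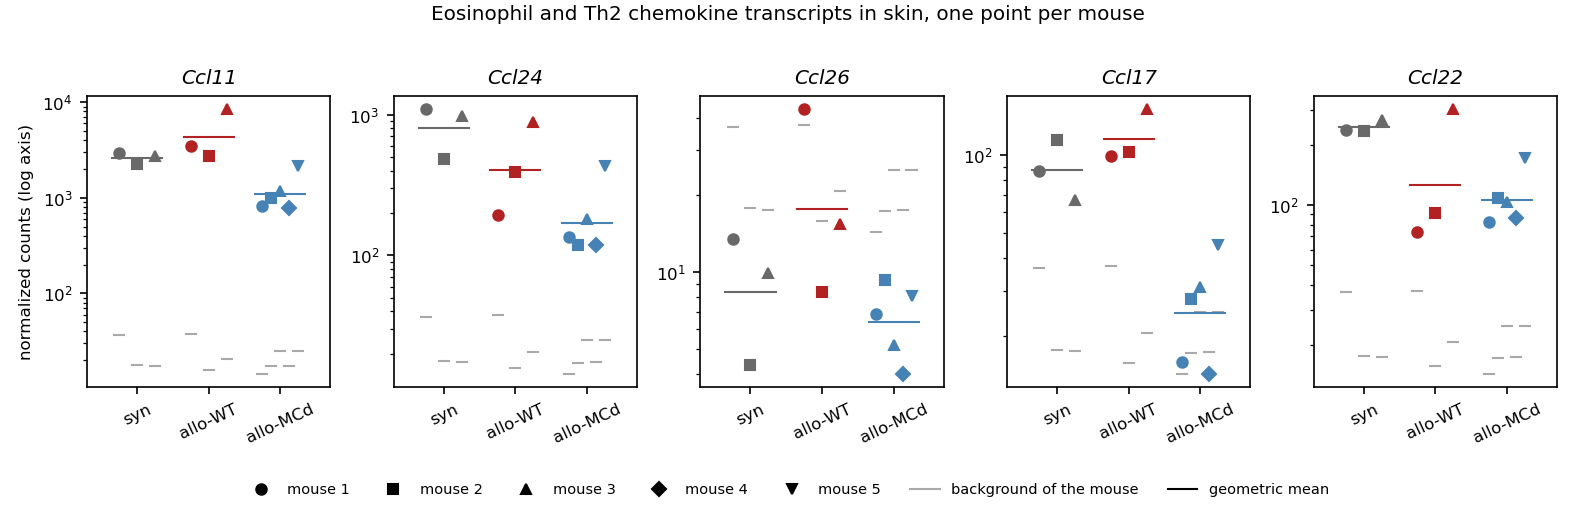
Normalized counts (log axis) of the 5 ligands in skin, one point per mouse in syngeneic, allo-WT and allo-MCd groups, with the marker giving the mouse number, a short grey bar giving the background of that mouse and a horizontal line giving the geometric mean of the group. Ccl11 and Ccl17 were lowest in all 5 allo-MCd mice, Ccl24 and Ccl22 were high in the syngeneic mice, and Ccl26 exceeded background in allo-WT mouse 1 alone.

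Ccl17 encodes TARC, the CCR4 ligand linked to homing of T cells to skin. Its normalized counts were 86.8, 114 and 67.3 in the syngeneic mice, 98.9, 103 and 149 in the allo-WT mice, and 15.95, 27.8, 31.0, 14.4 and 44.9 in the allo-MCd mice. All 5 allo-MCd mice lay below all other mice, and 1 of them lay below background. Ccl17 fell from allo-WT to allo-MCd by 2.18 (SE 0.38, adjusted p = 0.00036), or 4.53-fold, and by 1.36 after median scaling (adjusted p = 0.0036). It fell from syngeneic to allo-MCd by 1.78 (adjusted p = 0.0035), and by 1.21 after median scaling (adjusted p = 0.0191), but not by the methods' test once adjusted (adjusted p = 0.0565). The exact permutation test gave p = 0.0357 for each of these on both scales. Syngeneic and allo-WT mice overlapped, and the difference of 0.39 between them did not pass the test (95% confidence interval -0.52 to 1.31, adjusted p = 0.447).

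Ccl22 encodes MDC, the other CCR4 ligand and the chromosomal neighbor of Ccl17. Normalized counts of Ccl22 were 238, 235 and 268 in the syngeneic mice, 73.5, 92.0 and 301 in the allo-WT mice, and 82.0, 108, 104, 86.1 and 173 in the allo-MCd mice. The syngeneic mice lay close together and above all 5 allo-MCd mice, and the allo-WT mice were split, with mouse 1 below the allo-MCd range, mouse 2 inside it and mouse 3 above every syngeneic mouse. Ccl22 fell from syngeneic to allo-MCd by 1.20 (SE 0.41, adjusted p = 0.0354). After median scaling that difference was -0.61 (adjusted p = 0.255), and the call was also lost under quantile normalization (-0.52, adjusted p = 0.304), with voom (-0.60, adjusted p = 0.226), by the methods' test (adjusted p = 0.183) and when any of 7 single mice was left out. The difference of allo-WT from syngeneic was -0.95 (95% confidence interval -1.96 to 0.05, adjusted p = 0.107), and it passed after median scaling (-1.20, adjusted p = 0.0353) and without allo-WT mouse 3 (-1.57, adjusted p = 0.0032). Allo-MCd and allo-WT skin differed by -0.25 as deposited and by 0.59 after median scaling, and neither passed the test (adjusted p = 0.613 and 0.196).

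The 250 bases before the start of Ccl17 and Ccl22 are shown because these neighbors answer the same receptor and took different values across the groups. RefSeq promoters were found for 5 of the 8 genes, namely Ccl17, Ccl22, Ccr3, Ccr4 and Ccr8. They were searched on both strands for the STAT-type sequences TTCNNNGAA and TTCNNNNGAA, the second being the spacing preferred by STAT6, and for the NF-kB consensus. Capitals mark the STAT-type matches. The 2 stretches, both on the plus strand of GRCm38.p6, were Ccl17 at chr8:94810203-94810452 and Ccl22 at chr8:94745434-94745683.
Ccl17: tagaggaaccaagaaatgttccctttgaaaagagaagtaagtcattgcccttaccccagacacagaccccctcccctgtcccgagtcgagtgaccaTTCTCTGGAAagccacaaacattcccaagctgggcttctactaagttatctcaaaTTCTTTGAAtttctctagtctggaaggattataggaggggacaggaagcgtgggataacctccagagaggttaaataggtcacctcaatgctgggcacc
Ccl22: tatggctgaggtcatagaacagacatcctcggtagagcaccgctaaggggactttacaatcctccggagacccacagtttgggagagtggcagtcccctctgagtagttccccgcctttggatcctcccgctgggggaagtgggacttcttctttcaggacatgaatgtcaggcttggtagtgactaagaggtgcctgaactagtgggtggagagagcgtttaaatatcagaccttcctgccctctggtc

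The Ccl17 stretch held TTCTCTGGAA from -154 to -145 and TTCTTTGAA from -99 to -91, counted from the gene start, and the 2 matches do not overlap. The Ccl22 stretch held none of the 3 sequences. TTCNNNNGAA occurred in 5.85% and TTCNNNGAA in 7.02% of 32851 promoters of the same length, and neither occurred in the 3 receptor promoters. The Ccr3 promoter held 1 match to the NF-kB consensus, GGAAATTCCC from -179 to -170. Any match to that consensus was found in 7.25% of all promoters. A match is a description of the letters in these windows and not of binding in skin.

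Ccr3 encodes the receptor for all 3 eotaxins. Normalized counts of Ccr3 were 40.4, 24.9 and 44.1 in the syngeneic mice, 499, 80.0 and 975 in the allo-WT mice, and 50.1, 43.6, 66.1, 89.3 and 92.1 in the allo-MCd mice. All 3 allo-WT mice exceeded all syngeneic mice, and mice 1 and 3 also exceeded every allo-MCd mouse, while allo-WT mouse 2 was inside the allo-MCd range. Ccr3 rose from syngeneic to allo-WT by 3.23 (SE 0.71, adjusted p = 0.0037), or 9.35-fold, and by 2.97 after median scaling (adjusted p = 0.0038). The exact permutation test gave p = 0.1, the smallest that 3 mice against 3 allow. The rise was 4.26 without allo-WT mouse 2 and 2.47 without allo-WT mouse 3, and both were called. It was not called by the test of the study's methods, either before or after Benjamini-Hochberg adjustment (adjusted p = 0.146). Ccr3 fell from allo-WT to allo-MCd by 2.36 (SE 0.63, adjusted p = 0.0066), or 5.14-fold, and by 1.52 after median scaling (adjusted p = 0.0385), but the call was lost under quantile normalization (-1.46, adjusted p = 0.0525), with voom on recovered counts (-1.38, adjusted p = 0.0741) and by the methods' test, before and after adjustment (adjusted p = 0.110). Because the groups overlapped through allo-WT mouse 2, the exact permutation p of that fall was 0.107. Allo-MCd exceeded syngeneic skin by 0.87 (95% confidence interval -0.51 to 2.24), which did not pass the test (adjusted p = 0.275).

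Within the allo-WT group the eosinophil genes Siglecf, Alox15 and Il5ra took the same order of mice as Ccr3, highest in mouse 3 and lowest in mouse 2. Siglecf, a lectin of the eosinophil surface, lay at 45.2 to 53.0 in syngeneic, at 535, 113 and 939 in allo-WT, and at 44.8 to 90.9 in allo-MCd mice. Alox15, a lipoxygenase of eosinophils and alternatively activated macrophages, lay between 60.6 and 85.3 in syngeneic, at 738, 164 and 2680.1 in allo-WT, and between 59.2 and 207 in allo-MCd skin. Il5ra, the IL-5 receptor chain that sustains eosinophils, reached 114 and 148 in allo-WT mice 1 and 3 and was 23.9 in mouse 2. Of the 8 eosinophil genes on the panel, of 13 listed, 4 were tested, Siglecf, Alox15, Il5ra and Ccr3 itself. All 4 rose from syngeneic to allo-WT (28.3% of all genes rose) and fell from allo-WT to allo-MCd, and none passed between allo-MCd and syngeneic, with the same counts after median scaling. Of all genes tested, 348 of 696 fell from allo-WT to allo-MCd, and 211 did after median scaling. With values below background set to background, the rise of Il5ra was no longer called (1.35, adjusted p = 0.0626). Siglecf rose by 2.93 (adjusted p = 0.0025) and fell by 2.79 (adjusted p = 0.00076). These are RNA levels. The paper reports that eosinophils counted in H+E-stained skin sections did not differ significantly between the groups.

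Genes of the granules that define eosinophils were measured as well. Epx, Prg2, Prg3 and Ear6, which encode granule proteins, did not pass the filter. In allo-WT mice 1, 2 and 3, Prg2 was 38.0, 11.9 and 63.9 and Ear6 was 101, 15.5 and 65.2, so that both exceeded background in mice 1 and 3 and in no syngeneic mouse, and Prg2 did so in allo-MCd mouse 2 as well. Epx exceeded background in allo-WT mouse 2 alone and Prg3 in no mouse. The summed level of the 8 eosinophil genes ranged from 226 to 251 in syngeneic, from 437 to 4896 in allo-WT and from 197 to 441 in allo-MCd skin. Ccr3 is itself among these 8, so the sum is not independent of it. In allo-WT mouse 3, Alox15 gave 2680.1 and Ccr3 975 of the 4896. Mast cells also carry CCR3. The 8 mast cell genes summed to between 4004 and 9755 in syngeneic, 2472 and 14952 in allo-WT and 185 and 704 in allo-MCd skin. Of these 8, Fcer1a alone rose from syngeneic to allo-WT, by 2.23 (adjusted p = 0.0296). After median scaling it rose by 1.98 (adjusted p = 0.0371), beside 197 of 696 genes as deposited and 169 after scaling. Il3ra, the 1 gene measured of the 3 on the basophil list, lay at 308 to 591, 223 to 326 and 104 to 261 in the same order of groups. Il3ra fell from syngeneic to allo-MCd on the deposited scale alone and from syngeneic to allo-WT after median scaling alone. The part of these cells in the Ccr3 differences was not tested.

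**Figure D2:**
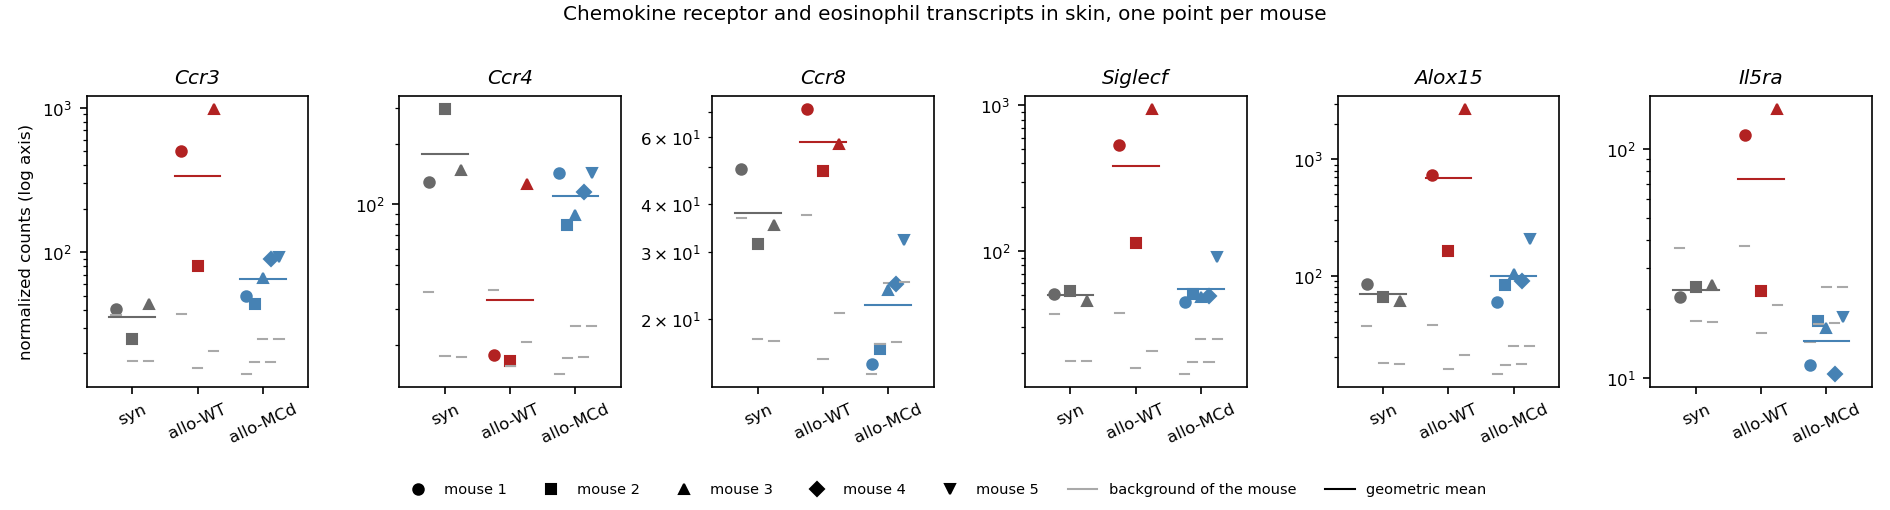
Normalized counts (log axis) of the receptors Ccr3, Ccr4 and Ccr8 and of the eosinophil genes Siglecf, Alox15 and Il5ra in skin, one point per mouse, with the marker giving the mouse number, a short grey bar the background of that mouse and a horizontal line the geometric mean of the group. Ccr3, Siglecf and Alox15 share the order mouse 3, mouse 1, mouse 2 in the allo-WT group, Ccr4 runs low in allo-WT mice 1 and 2, and Ccr8 lay below background in 2 allo-MCd mice.

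Ccr4 encodes the receptor for CCL17 and CCL22. Its normalized counts were 129, 296 and 149 in the syngeneic mice, 17.75, 16.7 and 126 in the allo-WT mice, and 143, 78.8, 88.8, 115 and 143 in the allo-MCd mice. Allo-WT mouse 1 lay below its background and mouse 2 just above it, while mouse 3 lay within the allo-MCd range. Ccr4 fell from syngeneic to allo-WT by 2.36 (SE 0.65, adjusted p = 0.0118), or 5.15-fold, and by 2.60 after median scaling (adjusted p = 0.0070). With values below background set to background the fall was 2.02 (adjusted p = 0.0156). Over 26 alternatives it ranged from -3.30 to -1.76, and the call was lost by the methods' test before and after adjustment (adjusted p = 0.118). Ccr4 rose from allo-WT to allo-MCd by 1.68 (SE 0.58, adjusted p = 0.0241), and by 2.50 after median scaling (adjusted p = 0.0028). With the same floor the rise was 1.33 (adjusted p = 0.0453). The exact permutation test of the rise gave p = 0.143 as deposited, where the groups overlapped, and p = 0.0357 after median scaling. On the deposited scale that rise was not called when allo-MCd mouse 1 (1.58, adjusted p = 0.0515), allo-WT mouse 1 (1.23, adjusted p = 0.125) or allo-WT mouse 2 (1.19, adjusted p = 0.120) was left out. It was also lost with the mouse number as a block (1.53, adjusted p = 0.104) and by the methods' test (adjusted p = 0.517). Allo-MCd and syngeneic mice overlapped, with a difference of -0.69 (95% confidence interval -1.95 to 0.57, adjusted p = 0.341).

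The direction of Ccr4 between the allogeneic groups was the opposite of that of its ligand Ccl17 and of the other receptors. Of the 696 genes tested, 76, or 10.9%, rose from allo-WT to allo-MCd on the deposited scale, and 248 did after median scaling. The gene whose values were most like those of Ccr4 over the 11 mice was Ccl27a (Pearson r = 0.97 as deposited and 0.98 after median scaling), which encodes a chemokine that keratinocytes make for CCR10-bearing T cells. Ccl27a stood at 185 and 154 in allo-WT mice 1 and 2, at 4406 in mouse 3, between 1996 and 8774 in syngeneic mice and between 1984 and 4668 in allo-MCd mice. Gata3, a factor of Th2 cells that is also present in epidermis and hair follicles, was also lowest in the allo-WT group, falling from syngeneic to allo-WT by 1.94 (adjusted p = 0.0072) and rising to allo-MCd by 2.20 (adjusted p = 0.00083).

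Ccr8 encodes a receptor for CCL1 and CCL8 in the mouse. Its normalized counts were 49.4, 31.4 and 35.3 in the syngeneic mice, 71.0, 49.0 and 57.5 in the allo-WT mice, and 15.2, 16.7, 23.8, 24.7 and 32.2 in the allo-MCd mice. All 3 allo-WT mice exceeded all 5 allo-MCd mice, of which 3 were above background. Ccr8 fell from allo-WT to allo-MCd by 1.39 (SE 0.31, adjusted p = 0.0021), or 2.62-fold. After median scaling the difference was -0.57 and did not pass (adjusted p = 0.0674), nor did it under quantile normalization (-0.35, adjusted p = 0.273) or with voom (-0.45, adjusted p = 0.130). The other differences did not pass, at 0.61 for allo-WT minus syngeneic (95% confidence interval -0.14 to 1.36, adjusted p = 0.163) and -0.78 for allo-MCd minus syngeneic (95% confidence interval -1.45 to -0.10, adjusted p = 0.0613). Of 25 alternatives, 1 called the first of these, namely the methods' test before adjustment. The second was called in 3 of 25, among them the mouse number as a block (-1.02).

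**Figure D3:**
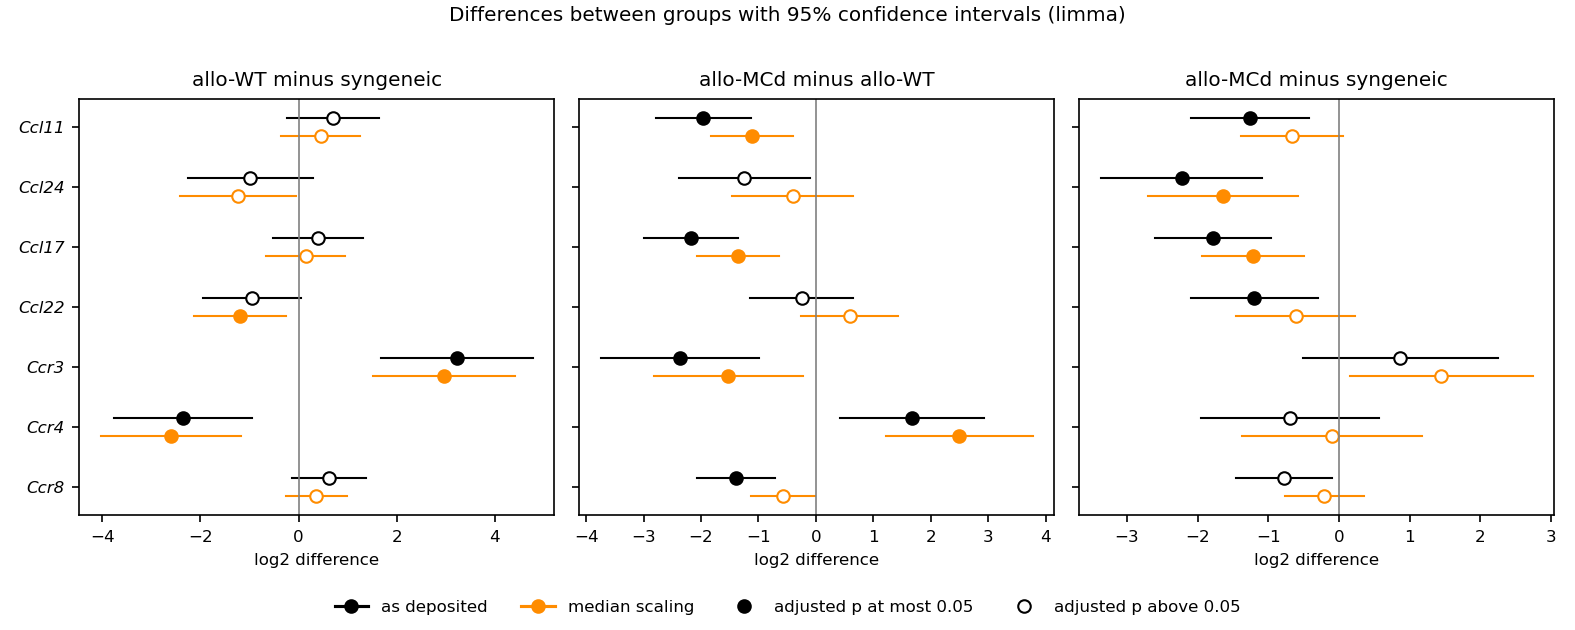
Log2 differences (x axis) of the 7 members tested in the 3 comparisons between groups, as deposited (black) and after median scaling (orange), with 95% confidence intervals from limma and filled points where the adjusted p was at most 0.05. From allo-WT to allo-MCd, Ccl11, Ccl17 and Ccr3 fell and Ccr4 rose on both scales, whereas Ccr8 was called on the deposited scale alone.

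Ratios between members of 1 mouse do not depend on how that mouse was scaled. The pairs were chosen after the values had been seen, and the ratios are given as a description with no test between groups. For Ccl24 over Ccl11 the mean log2 ratio was -1.72 ± 0.43 (SD, n = 3) in the syngeneic group, -3.40 ± 0.69 (SD, n = 3) in the allo-WT group and -2.69 ± 0.27 (SD, n = 5) in the allo-MCd group. Every syngeneic mouse lay above all 8 allogeneic mice. For Ccl22 over Ccl17 it was 1.50 ± 0.47 (SD, n = 3) in the syngeneic group, 0.14 ± 0.77 (SD, n = 3) in the allo-WT group and 2.12 ± 0.34 (SD, n = 5) in the allo-MCd group. All allo-WT mice lay below all mice of the other groups, with allo-WT mouse 3 at 1.01 next to syngeneic mouse 2 at 1.05. Relative to Ccl22, Ccl17 was thus highest in the allo-WT mice.

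Ccr4 and Ccr8, receptors of overlapping T-cell subsets, were compared in the same way. The log2 ratio of Ccr4 over Ccr8 was 1.38, 3.24 and 2.08 in the syngeneic mice, -2.0, -1.55 and 1.14 in the allo-WT mice, and 3.23, 2.24, 1.90, 2.22 and 2.15 in the allo-MCd mice. All 3 allo-WT mice lay below the other 8 mice. Ccr4 in allo-WT mouse 1 and Ccr8 in allo-MCd mice 2 and 3 were below background, so these 3 ratios rest on a value that could not be told from background, as does Ccl22 over Ccl17 in allo-MCd mouse 4. The log2 ratio of Ccr3 over Siglecf averaged -0.49 ± 0.54 (SD, n = 3), -0.18 ± 0.29 (SD, n = 3) and 0.25 ± 0.42 (SD, n = 5) in syngeneic, allo-WT and allo-MCd mice, and the groups overlapped. Over a range of Ccr3 from 24.9 to 975, that ratio kept between -1.09 and 0.85.

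**Figure D4:**
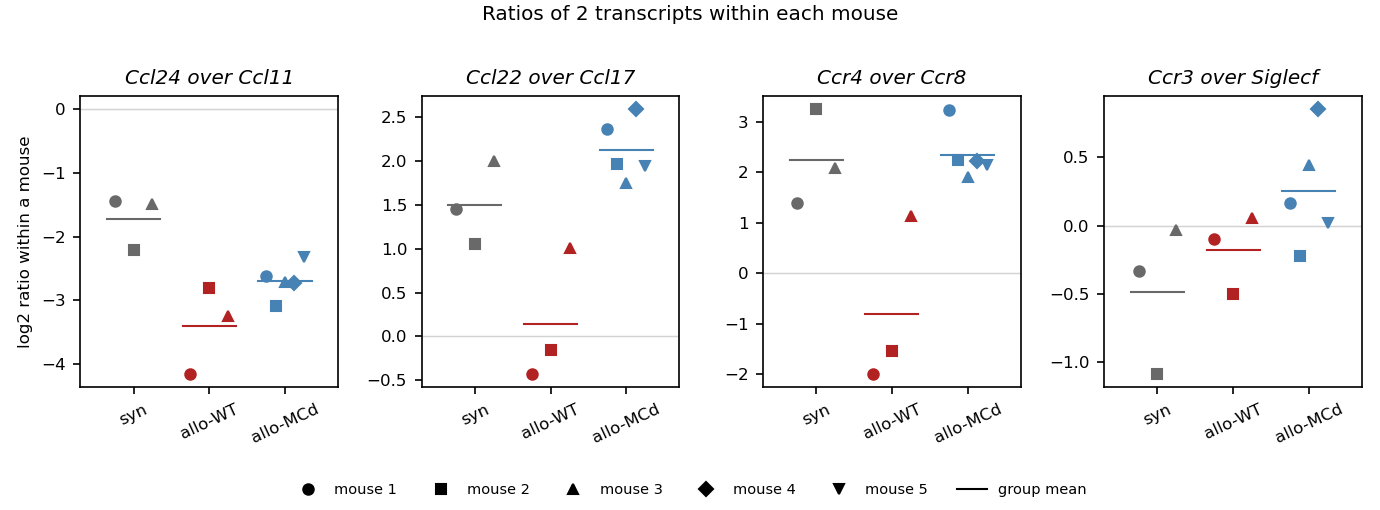
Log2 ratios (y axis) of 2 transcripts within each mouse, one point per mouse, with the marker giving the mouse number and a horizontal line the group mean. Ccl22 over Ccl17 and Ccr4 over Ccr8 were lowest in the 3 allo-WT mice, Ccl24 over Ccl11 was highest in the 3 syngeneic mice, and Ccr3 over Siglecf overlapped between groups.

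Other ligands of these receptors were measured beside the members. Of the 6 on the panel, Ccl28, an epithelial ligand of CCR3 and CCR10, was at background in every mouse. The 5 tested, Ccl5, Ccl7, Ccl8, Ccl9 and Ccl1, all rose from syngeneic to allo-WT and all fell from allo-WT to allo-MCd, on both scales. Of all 696 genes tested, 197 rose and 348 fell in these comparisons, and 169 and 211 did after median scaling. Their median differences were 3.22 and -3.56, beside 0.39 and -1.39 over the members tested. From syngeneic to allo-MCd the median was -0.23 (0.36 after median scaling) with 1 of 5 called on each scale. The members stood at -1.20 with 4 of 7 called and at -0.61 with 2 of 7 called after median scaling, and the difference between the 2 sets was not tested. Ccl8, a CCR8 ligand of mouse skin, lay between 9147 and 11705 in syngeneic, between 75024 and 111342 in allo-WT and between 5114 and 8267 in allo-MCd mice. It rose by 3.22 (SE 0.26, adjusted p = 9.6e-06) and fell by 3.75 (SE 0.23, adjusted p = 5.2e-07).

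Ccl7, a CCR3 ligand and the neighbor of Ccl11, lay between 325 and 544, between 3571 and 5618 and between 194 and 529 in the same order of groups. It rose by 3.33 (adjusted p = 5.7e-05) where Ccl11 did not pass, and fell by 3.56 (adjusted p = 2.4e-06). Ccl5, or RANTES, a ligand of CCR3 and of other receptors, rose by 4.68 and fell by 3.75. Ccl1, the classical CCR8 ligand, rose by 2.11 and fell by 2.07, with 137 to 302 normalized counts in allo-WT and 24.3 to 90.9 in allo-MCd mice. Ccl9, listed with them but best known as a ligand of CCR1, rose by 1.26 and fell by 3.19, and was the 1 gene of the 5 that also differed between allo-MCd and syngeneic skin (-1.93, adjusted p = 0.0014). As deposited, no pair of groups that included allo-WT overlapped for Ccl5, Ccl7, Ccl8, Ccl9 or Ccl1. Of all genes tested, 53.9% did not overlap between allo-WT and syngeneic mice and 56.0% between allo-MCd and allo-WT mice. After median scaling Ccl1 overlapped between allo-MCd and allo-WT mice.

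**Figure D5:**
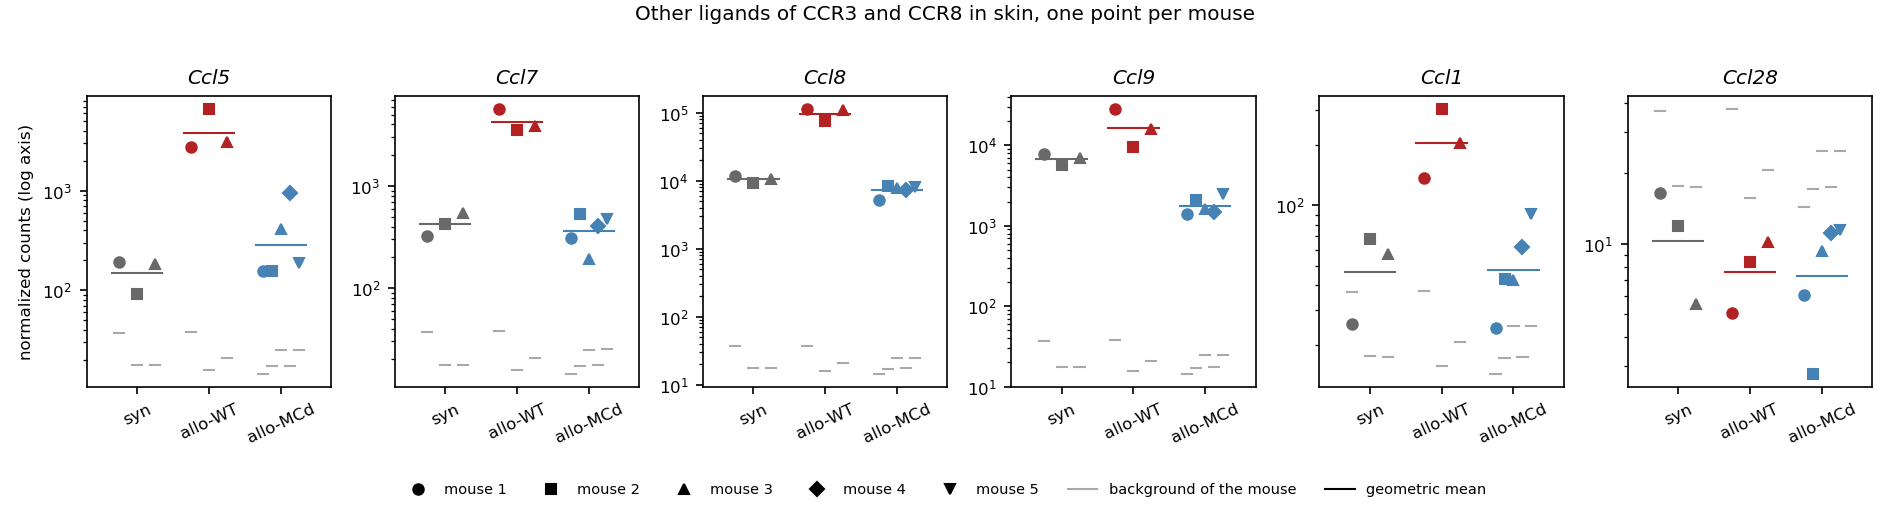
Normalized counts (log axis) of the 6 other ligands listed with CCR3 and CCR8, Ccl9 among them, in skin, one point per mouse, with the marker giving the mouse number, a short grey bar the background of that mouse and a horizontal line the geometric mean of the group. Ccl5, Ccl7, Ccl8, Ccl9 and Ccl1 were higher in all 3 allo-WT mice than in any other mouse, and Ccl28 lay below background in all 11.

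Transcripts of Il4, Il5 and Il13, the cytokines best known to induce the members or to sustain eosinophils, were scarce. Of 20 listed type 2 cytokines, alarmins and their receptors, 12 were on the panel and 9 were tested. From syngeneic to allo-WT 3 rose, Areg by 2.11, Il5ra by 1.58 and Il4ra by 1.16, beside 197 of 696 genes that rose, and none fell. From allo-WT to allo-MCd 8 fell and none rose, with the largest differences for Il1rl1, the IL-33 receptor (-3.09), Il4 (-2.66) and Il33 (-2.55). After median scaling 5 of the 9 were called lower. With values below background set to background, the falls of Il5 (-0.83, adjusted p = 0.0842) and Csf2 (-0.39, adjusted p = 0.320) were lost, and that of Il4 was 1.90 (adjusted p = 0.0034). Il4 then ranked behind Il4ra, which fell by 2.14. Of all 696 genes tested, 348 fell between these groups, and 211 did after median scaling. From syngeneic to allo-MCd Il1rl1 (-1.76), Csf2 (-1.24) and Il4ra (-0.98) fell, beside 36.9% of all genes, and the fall of Csf2 was lost with the same floor (-0.55, adjusted p = 0.189). After median scaling none fell and Areg rose by 1.70 (adjusted p = 0.0163), against 1.11 as deposited (adjusted p = 0.0593). Il4 lay at 19.9 to 34.4 in syngeneic, 27.5 to 135 in allo-WT and 3.99 to 25.3 in allo-MCd mice, above background in 2 of 3, 3 of 3 and 1 of 5. Its difference of 1.55 between allo-WT and syngeneic skin did not pass (adjusted p = 0.0685), and with the floor it was 1.52 and passed (adjusted p = 0.0312). Il13 exceeded background in 3 of 3 syngeneic, 2 of 3 allo-WT and 2 of 5 allo-MCd mice.

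Of 19 genes of the STAT6 pathway and alternative activation, 13 were measured and 12 tested. From syngeneic to allo-WT 6 rose and 2 fell on both scales, beside 197 and 104 of 696 genes as deposited and 169 and 190 after median scaling. The largest rises were those of the chitinase-like genes Chil4 (6.71) and Chil3 (6.07) and of Alox15 (3.28). Chil4 and Chil3 were each above background in 1 of 3 syngeneic, 3 of 3 allo-WT and 1 of 5 allo-MCd mice, so the sizes of their differences rest on values that could not be told from background. With values below background set to background the rises were 6.17 for Chil4 (adjusted p = 2.3e-05) and 5.28 for Chil3 (adjusted p = 0.00027). The 2 that fell were Gata3 and Irf4, a dendritic cell and macrophage factor (-1.58). From allo-WT to allo-MCd 10 fell and 1, Gata3, rose, led by Chil3 (-7.33), Chil4 (-6.94) and Mrc1 (-2.79), beside 348 of 696 genes that fell in all. After median scaling 7 were called lower, beside 211 of 696 genes. With the floor at background Chil4 fell by 6.47 and Chil3 by 5.96, in the reverse order. From syngeneic to allo-MCd 7 fell, beside 257 of 696 genes, led by Retnla (-2.97), Irf4 (-1.90) and Pdcd1lg2 (-1.47), and 3 did after median scaling, beside 94 of 696.

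Of 14 inducers known apart from type 2 cytokines, 9 were measured and tested. From syngeneic to allo-WT Ifng rose by 2.80 (adjusted p = 0.00041), beside 197 of 696 genes that rose, and Tnf (1.04), Osm (1.66), Il1b (0.84), Tnfrsf1a (0.42), Tnfrsf1b (0.61), Nfkb1 (0.24), Il1r1 (0.02) and Csf2 (-0.17) did not pass. Ifng was above background in 1 of 3 syngeneic, 3 of 3 allo-WT and 0 of 5 allo-MCd mice, and with values below background set to background its rise was 2.00 (adjusted p = 0.0023) and its fall to allo-MCd 2.32 (adjusted p = 0.00015). Outside the allo-WT group only syngeneic mouse 2, at 22.7, reached the minimum of the filter for Ifng, so this gene was tested through its allo-WT values. The same floor made the rise of Osm pass (1.65, adjusted p = 0.0200). From allo-WT to allo-MCd 8 of the 9 fell, by 0.64 for Nfkb1 to 2.80 for Osm and Ifng, and Il1r1 (-0.47) did not pass, beside 348 of 696 genes that fell. After median scaling 5 were called lower, beside 211 of 696. From syngeneic to allo-MCd Il1b (-1.80), Tnfrsf1b (-1.51), Csf2 (-1.24) and Tnfrsf1a (-0.47) fell, beside 257 of 696 genes, and 1 of the 9 did after median scaling, beside 94 of 696. Both falls of Csf2 were lost with the floor at background, as given above.

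Markers of cell types that make the ligands were summed for each mouse. The summed level of 9 macrophage genes was 26113 to 31687 in syngeneic, 52195 to 72902 in allo-WT and 8109 to 14396 in allo-MCd mice, and all 9 were above background in every mouse. The sum of 8 dendritic cell genes was 1386 to 2558, 814 to 1510.0 and 460.2 to 992 in the same order of groups. Cd83 and Irf4 had the largest means of the 8 in each group. As deposited, these 2 fell from syngeneic to allo-WT, by 1.42 and 1.58, and no other of the 8 was called. The differences of Flt3, Batf3 and Clec9a were negative (-1.08, -0.31 and -0.47). Those of Itgax, Ccr7 and Xcr1 were positive (0.78, 0.59 and 0.13), so the 8 genes did not move together. The sum of 5 fibroblast genes was 89814 to 189770, 12950.5 to 135370 and 36983 to 86742 in that order of groups. Cd247, the 1 T-cell gene measured of 14 listed, lay at 133 to 166, 139 to 178 and 39.9 to 113. Called falls from allo-WT to allo-MCd numbered 9 of 9 macrophage, 3 of 8 dendritic cell, 1 of 5 fibroblast and 8 of 8 mast cell genes, and 8, 1, 0 and 6 after median scaling, beside 348 and 211 of 696 genes tested. Of 5 genes of Th2 and regulatory T cells on the panel, Gata3, Ctla4, Icos, Ptgdr2 and Il1rl1, 2 rose and 1 fell from syngeneic to allo-WT, and 1 rose and 4 fell from allo-WT to allo-MCd. After median scaling these counts were 1 and 1, and 1 and 3, beside 197 and 104 of 696 genes in the first comparison as deposited and 169 and 190 after scaling. Ptgdr2, in no allo-MCd mouse above background, lost its call in the second with the floor at background (-0.79, adjusted p = 0.0952). It passed the filter through allo-WT values of 35.8 and 60.8 and a syngeneic value of 27.05. The sum of the endothelial genes Cdh5, Flt1 and Tek was 1112 to 1727, 522 to 613 and 455 to 1110 in the order above, and 2 of the 3 fell from syngeneic to allo-WT on both scales. From allo-WT to allo-MCd none of the 3 was called as deposited and 2 rose after median scaling, beside 248 of 696 genes that rose on that scale. The part of these cell types in the member differences was not tested.

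Within groups, single mice carried much of the spread. Allo-WT mouse 3 was the highest of its group for 6 of the 8 members and mouse 2 the lowest for 5. Allo-MCd mouse 5 was the highest of its group for 6 and syngeneic mouse 2 the lowest of its group for 6. The mice share a scaling within themselves, so this order is not independent across genes.

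Genes other than members whose log2 levels ran most like each ligand over the 11 mice were found by Pearson correlation, given as a description. Ccl11 ran most like Man2b1 (r = 0.97), Btk (0.96) and Ptafr (0.95), and the same 3 led after median scaling at 0.93, 0.89 and 0.88. Ccl24 ran most like Cd47 (0.97), Csf1 (0.96), the macrophage growth factor, and Tnfaip3 (0.93), and after median scaling like Rgl1, Cd83 and H2-DMa at 0.90, 0.89 and 0.89. Ccl17 ran most like Pik3cg, Cysltr1 and Ptafr (0.96, 0.96 and 0.95), and after median scaling Pdcd1lg2, the PD-1 ligand of alternatively activated cells, replaced Pik3cg at 0.89. Ccl22 ran most like Fn1 (0.91), the dendritic cell growth factor receptor Flt3 (0.90) and Cd209e (0.90). Flt3 and Fn1 remained after median scaling, with Tep1 first at 0.93. For the receptors, Ccr3 ran most like Pglyrp1 (0.97), Alox15 (0.96) and Siglecf (0.95), the same 3 on both scales, and Ccr8 like Tlr2, Fas and Jak3 (0.97 each). After median scaling the same 3 led for Ccr8, at 0.86, 0.84 and 0.85. Across the deposited values all points share the scaling of their mouse, and group differences enter each r.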

How the data were processed

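Skin RNA of 11 mice was run on an nCounter Flex instrument. The authors deposited a linear signal, namely molecule counts after normalization in nSolver. The housekeeping genes and any background subtraction are not given in the sources used here. Control probes were deposited as raw counts. Depth came from whole counts recovered with 1 factor per mouse (0.759 to 2.54), with 99.87% to 100% of values within 0.011 of a whole multiple. Mice are separate animals, and no 2 within a group agreed within sampling noise.

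Of 754 genes, 20 housekeeping genes were set aside and 696 of 734 passed the filter. The fit used limma 3.58.1 (R 4.3.3) with a trend, all 3 groups and no covariate, and was tested on simulated data. Exact permutation tests used scipy 1.17.1, over 56 and 20 arrangements, and were run for 24 member differences with no adjustment. Permutation tests of 12 ratio differences were also run and are not given. Python 3.11.15, numpy 2.4.6, pandas 2.3.3 and matplotlib 3.10.9 read and drew the values. Promoters and gene order are RefSeq's for GRCm38.p6, and all 8 symbols matched.

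The members, lists and tests were chosen with earlier results of these data known. Text names every member, the 3 largest called changes in each direction of lists with over 10 measured genes, and the 3 genes most like each ligand. The rule also took each gene of shorter lists, but most marker lists are given by sums and counts. Genes like the receptors, marker gene examples and ratio pairs were named after their values were seen. Alternatives were other pseudocounts (0.5, 20) and filters, median scaling, quantile normalization, housekeeping rescaling, limma without the trend or robust, only the groups compared, the methods' test (a 3-group test with Tukey's comparison), the mouse number as a block and each mouse left out. Voom on recovered counts and a floor at background were added after seeing the data. Mouse numbers did not pair the samples. Cartridge and scan batches are not given in the sources used here. RNA was extracted with Trizol per the labels and Ribozol per the methods.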

Additional observations from a re-analysis of the deposited data

Results flagged for a closer look

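Among 12 groups of values from 5 allo-MCd mice, 2 held a mouse that stood apart by Dixon's test, which flags about 1 in 20 such groups by chance. Members were tested as normalized counts on the linear scale and ratios as log2. The flag for Ccl24 is thus on the linear scale, and its log2 values were not tested in this way. Ccl24 was 429 in allo-MCd mouse 5, against 118 to 181 in the other 4, and the difference of allo-MCd from allo-WT was called without that mouse (-1.58, adjusted p = 0.0120). The log2 ratio of Ccr4 over Ccr8 was 3.23 in allo-MCd mouse 1, against 1.90 to 2.24 in the other 4, all of them above the 3 allo-WT mice, and Ccr8 was below background in allo-MCd mice 2 and 3.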

How the results depend on the processing

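Over 26 alternatives for the difference of each member in each comparison (25 for Ccr8, which has no value under the filter at 50), 486 values kept their direction and side of the threshold, 40 lost a call, 12 gained one and 5 changed sign. The sign changes were Ccl17 in allo-WT minus syngeneic under quantile normalization (-0.031) and Ccl22 in allo-MCd minus allo-WT under median scaling (0.59), quantile normalization (0.68), voom (0.64) and without allo-WT mouse 3 (0.37, with -0.64 the other end of the range when a mouse was left out), none of them called. Ccl17 in allo-MCd minus allo-WT was called under all 26, at -2.39 to -1.15. For allo-WT minus syngeneic, limma called 2 members, Ccr3 and Ccr4. The methods' test called neither of these and 1 other member, Ccr8. After Benjamini-Hochberg adjustment it called 0, where limma at its own threshold gave 2. Leaving out 1 mouse gave 2 to 4, the highest without allo-WT mouse 3. For allo-MCd minus allo-WT, 5 became 3 under quantile normalization, voom and the methods' test and 2 after its adjustment, and 4 to 6 with a mouse left out. For allo-MCd minus syngeneic, 4 became 2 under median scaling, quantile normalization, voom and the methods' test and 0 after its adjustment, and 2 to 5 with a mouse left out, the lowest without allo-MCd mouse 1, syngeneic mouse 1 or syngeneic mouse 3. Over all genes the higher and lower calls were 197 and 104, 76 and 348, and 32 and 257 in the 3 comparisons, and 169 and 190, 248 and 211, and 97 and 94 after median scaling. The adjusted methods' test called 193, 302 and 79 genes against 301, 424 and 289. The cause of these differences was not tested.

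In a fit with a replicate block for the mouse number, 2, 5 and 5 members were called. Ccr4 in allo-MCd minus allo-WT was lost (1.53, adjusted p = 0.104), and Ccl24 in the same comparison (-1.51, adjusted p = 0.0200) and Ccr8 in allo-MCd minus syngeneic (-1.02, adjusted p = 0.0499) were gained. The numbers did not pair the mice, with 9 correlations of deviations between -0.11 and 0.21, and over all genes 290, 384 and 275 were called. Low counts limit Ccl26, Ccr8, Ccl17 in allo-MCd mice and Ccr4 in allo-WT mice, where values lie near background.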
